A study of Mus musculus with 54 samples.

Results

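The comparison described here sets 2 groups of control cells from mouse bone marrow side by side: myeloid progenitors of controls injected with poly(I:C) and of controls that received no injection. Cells were chosen from the well table deposited by the authors, from 1 sequencing batch, as wells described as Cebpa control or Cebpe control that held 1 sorted cell and at least 500 unique molecular identifiers (UMIs, 1 per captured mRNA molecule). The rule kept 582 of the 760 single-cell wells in these 4 amplification pools, out of 8399 such cells in the whole series. Of the 582 cells, 165 and 167 came from the 2 Cebpa control pools and 127 and 123 from the 2 Cebpe control pools.

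The series profiled progenitors that lack lineage markers and Sca1 and carry cKit, sorted singly into plates and sequenced by MARS-seq, a plate-based method that counts the 3' ends of mRNA. Cebpa control stands for the genotype Cebpa(flox/flox), in which the Cebpa gene is flanked by recombination sites but no Cre recombinase is listed, with 300 µg of poly(I:C) given 3 times, 3 weeks before harvest. Cebpe control stands for Cebpe+/+ with no injection listed. Both are C57BL/6 animals of 14 weeks housed at the same facility, whose marrow was crushed out of femur, tibia and ilia and enriched for cKit on magnetic beads. The matching knockout of Cebpa carries Mx1-Cre, a recombinase under an interferon-inducible promoter, which is why its animals and their controls receive poly(I:C); the Cebpe knockout is a germline deletion and needs none. The unsorted wild-type cells and the later Cebpa control plates used below for reference come from C57BL/6 mice of 6 to 8 weeks. The 2 control groups are called treated and untreated below, in the sense of the authors' table.

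Treatment, genotype, mouse and plate cannot be told apart here. The treated cells carry mouse identifier 6 and were all sorted into plate 14, and the untreated cells carry mouse identifier 7 and were all sorted into plate 16, so the 2 pools of a group are the 2 parts of the same plate. Neither plate holds cells of the other group. Mouse identifiers follow the genotype group over batches and ages, so a shared identifier need not mean 1 animal. For these 2 groups the pool test therefore has only the spread between pools of 1 plate, which may be technical. Over all cells its p-values take the spread from all 12 pools of the batch. Each knockout among them was sorted into 2 plates, so part of that spread is between plates. The series' sample labels and the authors' table also disagree for all 12 pools of this batch. By the sample labels the pools called treated here are Cebpe knockout pools of an uninjected animal, and the pools called untreated are Cebpa knockout pools of an injected animal, so that poly(I:C) would sit on the other side and every direction below would turn.

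The targeted genes were read first because they bear on that conflict. Cebpa, a transcription factor that granulocyte and monocyte progenitors need, gave 44 and 44 UMIs in the treated pools and 34 and 23 UMIs in the untreated pools, the pools that the sample labels call Cebpa knockout. The 4 pools that the authors' table describes as Cebpa knockout gave 1, 0, 2 and 2 UMIs of Cebpa. Cebpe, a later granulocyte factor, gave 20 and 34 UMIs in the treated pools, which the sample labels call Cebpe knockout, and 40 and 21 in the untreated pools, against 0 in each of the 4 pools that the table describes as Cebpe knockout. Both controls thus carried both transcripts, as the table describes them and against the sample labels, but these genes do not tell the Cebpa control from the Cebpe control. In CPM, Cebpa had 115 and 90.6 CPM in the treated and 54.7 and 39.0 CPM in the untreated pools (log2 difference 1.11 ± 0.30 SE, adjusted p = 0.0126).

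Depth differed between the plates. The treated pools kept 86.8% and 87.9% of their single-cell wells and the untreated pools 66.8% and 64.7%, with a median of 1907 and 2430 UMIs per cell against 3774 and 3496. Summed over cells the pools held 373701 and 483934 UMIs against 595248 and 585053, and wells without a cell held a mean of 43 to 76.5 UMIs. The rule left out 48 treated and 130 untreated wells; the shallowest kept wells held 508 and 537 UMIs and the deepest left out 495 and 482. Counts of the 2 pools of a plate differed by 2.56 and 2.32 times sampling noise (chi-square per degree of freedom over abundant genes), and counts of pools from different plates by 10.9 to 13.7 times, so no pool repeats another. The sorted identity held in the transcripts: the row that joins Kit with a second symbol gave 123 and 123 CPM (UMI counts per 1e+06 UMIs of the library, scaled between libraries) in the treated and 146 and 164 CPM in the untreated pools, while Ly6a (Sca1) and the lymphoid genes Cd3e and Cd79a had 0 UMIs in all 4 pools. Xist, expressed from the inactive X chromosome, had 1 and 1 UMIs in the treated and 31 and 11 in the untreated pools (log2 difference -3.76, adjusted p = 0.00362). Ddx3y shares a row with its X-linked copy Ddx3x and so says nothing of the Y chromosome, and the other Y-linked genes looked for, Eif2s3y, Kdm5d, Uty, Usp9y and Zfy1, were at 0 in every pool.

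Poly(I:C) is a synthetic double-stranded RNA. Cells sense it through Tlr3 in endosomes and through Ifih1 (MDA5) and Ddx58 (RIG-I) in the cytosol, and answer with type I interferon, which binds the receptor chains Ifnar1 and Ifnar2 and signals through Jak1, Tyk2, Stat2 and Irf9 to a large set of interferon-stimulated genes. In bone marrow the response is strong within hours to days and drives stem and progenitor cells into division before it wanes. Genes were grouped by these roles, as sensors, ligands, receptors with their signalling chain, effectors, and the MHC class I pathway.

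Irf9, in a complex with Stat2, binds a promoter element with the core GAAANNGAA. Of the 22 interferon-list genes that passed the test below, 18 had a promoter in the RefSeq table (GRCm38.p6, 250 bases before to 50 after the start), and 6 of these 18 (33.3%) held the core on either strand of the 250 bases before the start in at least 1 of their promoters. Counted the same way, 8.18% of all 27025 genes of the table held it, and 7.13% of its 32851 single promoters. The 18 were drawn from interferon lists, and list genes that did not pass were not searched. The share therefore says nothing about the difference between the controls. The core and the bases around it are shown for 4 of the 6, because these are the genes whose values follow, 5′ to 3′ on the gene's strand with the matched letters in capitals.
Bst2, chr8:71537563-71537621, minus strand: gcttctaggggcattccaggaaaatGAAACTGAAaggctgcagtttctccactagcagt
B2m, chr2:122147523-122147581, plus strand: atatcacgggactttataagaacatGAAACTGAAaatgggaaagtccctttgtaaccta
Lgals9, chr11:78984945-78985003, minus strand: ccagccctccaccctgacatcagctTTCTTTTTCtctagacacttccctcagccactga
Apobec3, chr15:79892244-79892302, plus strand: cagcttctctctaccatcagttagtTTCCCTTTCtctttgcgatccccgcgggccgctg
The match lies 124 bases before the start of Bst2, 139 before those of B2m and Apobec3, and 54 before that of Lgals9. In Lgals9 and Apobec3 the core stands on the other strand, so the capitals hold its reverse complement. Trim25 and Erap1 are the other 2 genes with the core, 9 bases before the start in each. A match describes these letters and does not show that a factor binds there.

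Over all cells, edgeR's quasi-likelihood test on pool sums called 820 of 7363 genes (11.1%) at a Benjamini-Hochberg adjusted p under 0.05, with 169 higher (2.3%) and 651 lower (8.84%) in the treated pools. Both treated pools lay below both untreated pools for 28.9% of the genes tested and above them for 27.3%. The median log2 difference of all genes was 0.01. Leaving out 1 pool at a time reduced the count to 447 and 396 without the first and second treated pool and to 462 and 562 without the first and second untreated pool. In sums per plate, with the spread taken from plates that share a description, 0 of 9387 genes (0%) passed the adjusted threshold in edgeR, with a lowest adjusted p of 0.0845, and 1369 (14.6%) had an unadjusted p under 0.05; no second tool was run on plates. Every call below is thus a difference between these 2 plates beyond the spread that the fit takes from the pools of the batch. In the fit on plates, none was beyond the spread between plates.

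The mix of cells was similar, with more erythroid-like and fewer megakaryocyte-like cells on the treated plate. Classes were taken from clusters of 2732 unsorted wild-type progenitors, named from markers, to which each control cell was assigned. Erythroid-like cells made up 34.5% and 42.5% of the treated pools and 28.3% and 30.1% of the untreated pools, or 38.6% (exact 95% interval 33.3 to 44.0) against 29.2% (23.6 to 35.3) of the groups. The 8 plates of unsorted cells ranged from 19.7% to 40.9%, which covers both groups. Megakaryocyte-like cells were 2 of 332 treated cells (0.602%, interval 0.0730 to 2.16) and 13 of 250 untreated cells (5.20%, 2.80 to 8.73), with unsorted plates between 0.888% and 5.28%. Monocyte-like cells overlapped, at 7.88% and 12.0% against 16.5% and 11.4%, and neutrophil-like cells were 13.3% and 9.58% against 9.45% and 8.94%. Stem- or multipotent-like cells stood at 12.1% and 11.4% against 10.2% and 10.6%. Cells of clusters without enough markers for a name took 25.5% and 22.2% against 26.8% and 31.7%. The exact two-sided permutation test of 2 against 2 pools cannot give a p below 0.333, and it gave 0.333 for each share whose pools did not overlap. Intervals cover counting error only, and because the untreated plate lost more wells to the UMI minimum, shares of kept cells need not be shares of sorted cells.

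**Figure D1:**
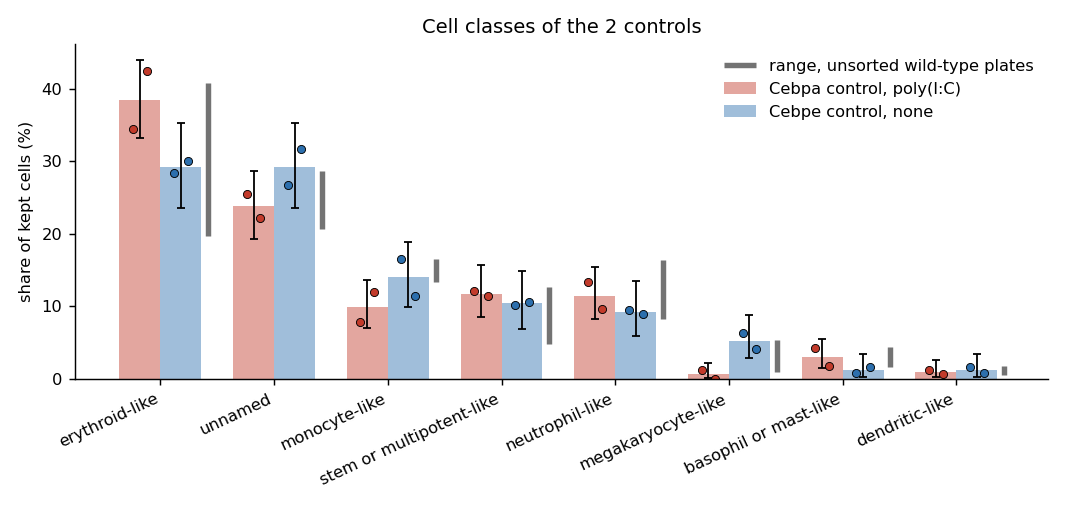
Share of kept cells (%) in each class for the Cebpa control (poly(I:C)) and the Cebpe control (none), grouped by the authors' table: bars give the group with its exact 95% binomial interval, points the 2 pools, and grey lines the range of the 8 unsorted wild-type plates. The erythroid-like share is 38.6% against 29.2% and the megakaryocyte-like share 0.602% against 5.20%.

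Surface CD34 was lower and surface FcgR higher on treated granulocyte and monocyte progenitors. Index sorting recorded both for nearly every cell as fluorescence on a linear scale. CD34, a glycoprotein of early progenitors, had a median of 368 and 381.5 on treated and 824 and 860 on untreated monocyte-like cells. On neutrophil-like cells the medians were 298 and 186.5 against 571.5 and 402, and on stem- or multipotent-like cells 335.5 and 392 against 864 and 828. Erythroid-like cells, which carry little CD34, overlapped at 80 and 78 against 89.5 and 74. FcgR, the Fc receptors for IgG that separate granulocyte-monocyte from other progenitors, ran the other way, with medians of 6107 and 5158 on treated and 3965 and 3273 on untreated monocyte-like cells and of 4992 and 4491.5 against 3095 and 2518 on neutrophil-like cells. On erythroid-like cells FcgR overlapped at 50 and 41 against 47 and 33. Where the pools did not overlap, the exact permutation p was 0.333, the smallest possible.

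Other plates show how far these levels move. The 2 Cebpe knockout plates of the batch had monocyte-like medians of 788 and 840.5 for CD34, near the untreated plate, and of 4527 and 5660.5 for FcgR, between the untreated plate at 3774 and the treated plate at 5871. Their neutrophil-like CD34 medians, 266 and 287, were instead nearer the treated plate at 234 than the untreated plate at 558. Stem- or multipotent-like CD34 was 868.5 and 930 on these plates (18 and 7 cells) and 242.5 and 158 on the Cebpa knockout plates, with 353 on the treated and 846 on the untreated plate. Monocyte-like cells on the 8 unsorted plates, from younger mice kept at another facility, ranged from 266 to 463 for CD34 and from 1075 to 2291 for FcgR. Over all cells of a pool, surface CD34 had medians of 179 and 146 on treated and 548 and 445 on untreated cells, and surface FcgR 363 and 375 against 578 and 410, so that FcgR over all cells was lower in the treated pools. Cd34 mRNA had 83.7 and 80.3 CPM in the treated and 108 and 83.1 CPM in the untreated pools (log2 difference -0.23, adjusted p = 0.744). Fcgr3 mRNA had 68.0 and 67.9 CPM in the treated and 191 and 144 CPM in the untreated pools (log2 difference -1.31, adjusted p = 0.000291). Fcgr3 encodes 1 of the Fc receptors for IgG, and its sum, like the surface median over all cells, was lower in the treated pools; the 2 were not compared within a class.

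**Figure D2:**
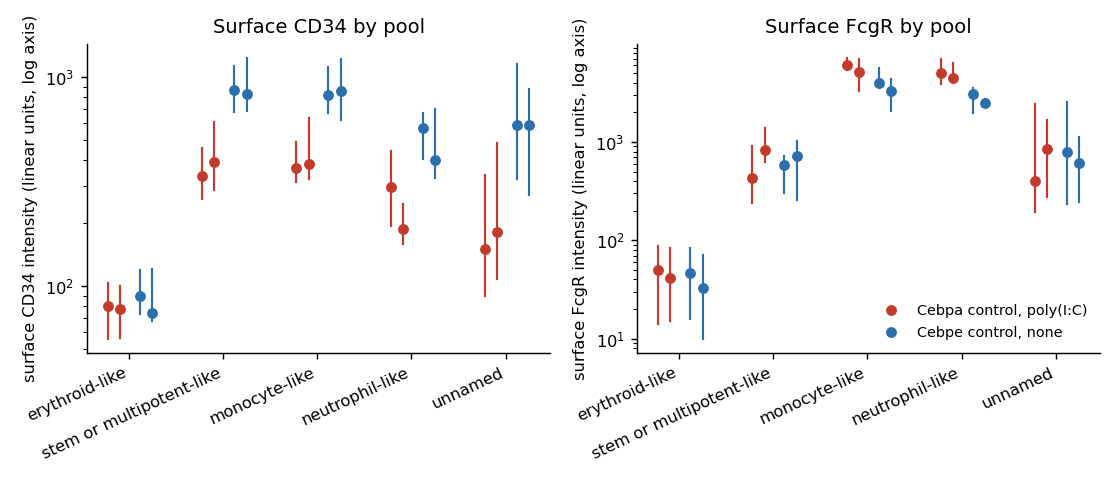
Surface CD34 and FcgR intensity (linear fluorescence units, log axis) by cell class and pool; points are medians over cells and lines the quartiles, red for the Cebpa control (poly(I:C)) and blue for the Cebpe control (none), as described by the authors' table. Monocyte-like medians are 368 and 381.5 against 824 and 860 for CD34, and 6107 and 5158 against 3965 and 3273 for FcgR.

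Genes of the interferon lists were lower in the treated pools more often than higher. Over sensors, receptors, effectors and MHC class I genes together, 86 of 116 matched rows passed the filter on low counts, of which 21 fell and 1 rose in edgeR (25.6% of those tested, beside 11.1% of all genes, of which 8.84% fell and 2.3% rose). Their median log2 difference was -0.62, beside 0.01 for all genes. Both treated pools lay below both untreated pools for 48 of the 86 and above them for 13. Of all genes tested, 28.9% lay below and 27.3% above in this way. In sums per plate, where 98 interferon-list genes were tested, none passed. Of the 86, 30 had an unadjusted p under 0.05 in edgeR on plates, beside 14.6% of the 9387 genes tested there. The plate fit filters low counts by itself, so the 2 shares rest on unlike sets of genes. A gene that passed the filter through 1 group alone had to differ, so these counts describe the lists and test nothing about them. The lists were drawn up with earlier results of these data known.

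Of the 22 sensor genes, 13 were tested and none passed, at a median log2 difference of -1.14. Over all genes tested, 8.84% fell and 2.3% rose. Tlr3, Tlr7 and Tlr9 had 0 UMIs in all 4 pools. Ifih1, the sensor of long double-stranded RNA, had 10.5 and 14.4 CPM in the treated and 41.8 and 35.6 CPM in the untreated pools (adjusted p = 0.0819), the pools not overlapping. Oasl1, an oligoadenylate synthetase-like protein, had 39.2 and 47.3 CPM in the treated and 74.0 and 98.4 CPM in the untreated pools (adjusted p = 0.0953), and Eif2ak2, the kinase PKR, had 23.5 and 32.9 CPM in the treated and 46.6 and 52.6 CPM in the untreated pools (adjusted p = 0.255). Irf3, the factor that the sensors activate, lay at 99.3 and 117 CPM in the treated and 88.4 and 103 CPM in the untreated pools and overlapped between the groups, as did Tbk1, the kinase upstream of it, at 34.0 and 30.9 CPM in the treated and 33.8 and 30.5 CPM in the untreated pools. Summed over the list, sensors reached 311 and 349.9 CPM in the treated and 489 and 526 CPM in the untreated pools. The unsorted plates held 507 to 623 CPM, not scaled between libraries. Both treated pools lay below that range. The untreated pools stood at its low end, and with the 2 scales unlike, the first cannot be placed below or within it.

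No interferon ligand was detected. Ifnb1, Ifng, 4 genes of the Ifna family, Ifnk and Ifne all had 0 UMIs in the 4 pools, which at 3 counts over a group allows up to 3.45 CPM in the treated and 2.48 CPM in the untreated pools.

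Of 17 tested genes of receptors and their signalling chain 2 fell and the others did not pass, at a median log2 difference of -0.04. This is near the share of all genes tested, of which 8.84% fell and 2.3% rose. Jak2 had 18.3 and 18.5 CPM in the treated and 69.2 and 56.0 CPM in the untreated pools (log2 difference -1.76, adjusted p = 0.00678). Jak2 is the kinase of the interferon gamma and cytokine receptors. Usp18 had 7.84 and 0 CPM in the treated and 27.3 and 27.1 CPM in the untreated pools (log2 difference -2.87 ± 0.94 SE, adjusted p = 0.0408). Usp18 removes Isg15 from proteins and restrains the type I receptor. The receptor chains gave 118 and 90.6 CPM in the treated and 137 and 120.4 CPM in the untreated pools for Ifnar2 and 339.9 and 339.6 CPM in the treated and 368 and 329 CPM in the untreated pools for Ifngr1, and neither passed. Stat3, at 115 and 78.2 CPM in the treated and 88.4 and 84.8 CPM in the untreated pools, and the phosphatase Ptpn6, at 290.2 and 239 CPM in the treated and 191 and 189.9 CPM in the untreated pools, did not pass either.

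Effectors carried most of the differences: of 40 tested, 15 fell and 1 rose, at a median log2 difference of -0.96. Beside them, 8.84% of all genes tested fell and 2.3% rose. Some were not detected in the treated pools. Ifit2, which blocks translation of viral RNA, had 0 and 0 UMIs in the treated pools and 22.5 and 30.5 CPM in the untreated pools, at least 7.65-fold lower at the floor of 3 counts over the group (adjusted p = 0.000758). The row joining Trim30a and Trim30, tripartite motif proteins that dampen Toll-like receptor signalling, likewise had 0 and 0 UMIs against 35.4 and 32.2 CPM, at least 9.80-fold lower (adjusted p = 3.48e-05). Parp9 had 2.61 and 0 CPM in the treated and 40.2 and 50.9 CPM in the untreated pools (log2 difference -5.02 ± 0.92 SE, adjusted p = 0.000132). Parp9 is an ADP-ribosyltransferase partner that enhances interferon signalling. Xaf1 had 5.23 and 6.17 CPM in the treated and 37.0 and 44.1 CPM in the untreated pools (log2 difference -2.77 ± 0.60 SE, adjusted p = 0.00118). Nmi had 10.5 and 14.4 CPM in the treated and 72.4 and 72.9 CPM in the untreated pools (log2 difference -2.50 ± 0.48 SE, adjusted p = 0.000268). Xaf1 promotes apoptosis, and Nmi binds Stat proteins.

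More abundant effectors were lower as well. Lgals9 had 339.9 and 385 CPM in the treated and 1016 and 992 CPM in the untreated pools (log2 difference -1.47 ± 0.18 SE, adjusted p = 1.16e-07). Lgals9 encodes galectin-9, a secreted lectin. Ifitm3 had 88.9 and 117 CPM in the treated and 312 and 348 CPM in the untreated pools (log2 difference -1.67 ± 0.25 SE, adjusted p = 3.99e-06). Ifitm3 blocks entry of enveloped viruses at membranes. Trim25 had 57.5 and 39.1 CPM in the treated and 135 and 142 CPM in the untreated pools (log2 difference -1.55 ± 0.30 SE, adjusted p = 0.000271). Trim25 is the ubiquitin ligase that activates RIG-I. Lgals3bp had 199 and 199.7 CPM in the treated and 394 and 407 CPM in the untreated pools (log2 difference -1.01 ± 0.20 SE, adjusted p = 0.000426). Lgals3bp is a secreted glycoprotein that binds galectins. In each of these 4 genes both treated pools were below both untreated pools. Bst2 (tetherin, which holds budding viruses at the cell surface), Apobec3 (a cytidine deaminase of retroviral DNA), Sp100 (a nuclear body protein) and Rtp4 (a transmembrane chaperone) also passed, with log2 differences of -0.90, -0.70, -2.44 and -1.87. The joined rows that hold Ifi47 and Phf11 passed at -1.93 and -1.82, which cannot be given to 1 gene.

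Not every classical effector was lower. Ifi30, a lysosomal thiol reductase, was the 1 that rose, from 113 and 110.2 CPM in the untreated to 201 and 185 CPM in the treated pools (log2 difference 0.79 ± 0.26 SE, adjusted p = 0.0435), and it missed the threshold under 8 of 12 alternatives (adjusted p up to 0.206). Isg15, the ubiquitin-like modifier, overlapped at 23.5 and 14.4 CPM in the treated and 24.1 and 37.3 CPM in the untreated pools, and Isg20, an RNA exonuclease, at 209 and 303 CPM in the treated and 212 and 244 CPM in the untreated pools. Ly6e, the most abundant member, had 1459 and 1671 CPM in the treated and 2109.9 and 2029.8 CPM in the untreated pools and missed the threshold (adjusted p = 0.0615), as did Irf7, the factor that amplifies interferon production, at 39.2 and 22.6 CPM in the treated and 48.2 and 67.8 CPM in the untreated pools. Ifitm2, the neighbour of Ifitm3, went the other way without passing, at 337 and 268 CPM in the treated and 225 and 227 CPM in the untreated pools. Mx1, whose promoter drives the Cre of the knockout, gave 1 UMI in all 4 pools together.

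MHC class I and immunoproteasome genes were split, with 4 of 16 tested lower, none higher and a median log2 difference of -0.01. Among all genes tested 8.84% fell and 2.3% rose. The row joining B2m, the light chain of class I molecules, had 169.9 and 167 CPM in the treated and 881 and 741 CPM in the untreated pools (log2 difference -2.27 ± 0.23 SE, adjusted p = 1.03e-09). H2-K1 had 552 and 605 CPM in the treated and 891 and 831 CPM in the untreated pools (log2 difference -0.58 ± 0.17 SE, adjusted p = 0.0185). H2-K1 is a classical class I heavy chain. Tapbp, which loads peptide, and Erap1, which trims it, passed at -0.72 and -3.89. The other heavy-chain rows did not pass, at 591 and 613 CPM in the treated and 785 and 755 CPM in the untreated pools for the row of H2-D1 and 1004 and 918 CPM in the treated and 783 and 661 CPM in the untreated pools for the row of H2-Q genes, nor did Psmb8, an immunoproteasome subunit, at 554 and 489.9 CPM in the treated and 479 and 536 CPM in the untreated pools, or the peptide transporter Tap1 at 167 and 173 CPM in the treated and 154 and 127 CPM in the untreated pools. The gap between the B2m row and the heavy chains it pairs with was not tested.

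Other plates of the series place these values, in CPM that are not scaled between libraries as those of the pools are. On the unsorted plates Lgals9 ranged from 351 to 1175 CPM, Ifitm3 from 99.8 to 261 CPM, Trim25 from 92.3 to 138 CPM and the B2m row from 51.5 to 315 CPM. The treated plate was therefore below that range in Trim25, near its low end in Lgals9 and Ifitm3 and within it for B2m, and the untreated plate was above it in Ifitm3 and B2m. Of the 22 genes that passed, the ratio between the 2 controls exceeded the ratio of the highest to the lowest unsorted plate for 14. It did so for 556 of all 820 genes that passed (67.8%), so the interferon lists do not stand out in this. Mouse identifier 6 recurs in a later batch on 2 plates (mice of 6 to 8 weeks), whose labels and table entries both name the Cebpa control; their labels give poly(I:C) with no dose or time, and 1 of the 2 plates is listed as Cebpa(flox/flox)Mx1-Cre. There Lgals9 had 956 and 56.7 CPM, Ifitm3 113 and 11.7 CPM, Trim25 61.3 and 33.4 CPM and the Trim30 row 0 and 0 CPM. Trim25 and the Trim30 row were thus low on all 3 plates of that identifier, whereas Lgals9 and Ifitm3 differed widely between the 2 later plates. The knockout plates of the same batch gave 87.1 to 144 CPM of Trim25, 19.7 to 30.8 CPM of the Trim30 row and 9.87 to 22.0 CPM of Ifit2. By the authors' table these are plates of the Cebpa knockout, a group given poly(I:C), and of the Cebpe knockout, given none. The ranges cover both.

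**Figure D3:**
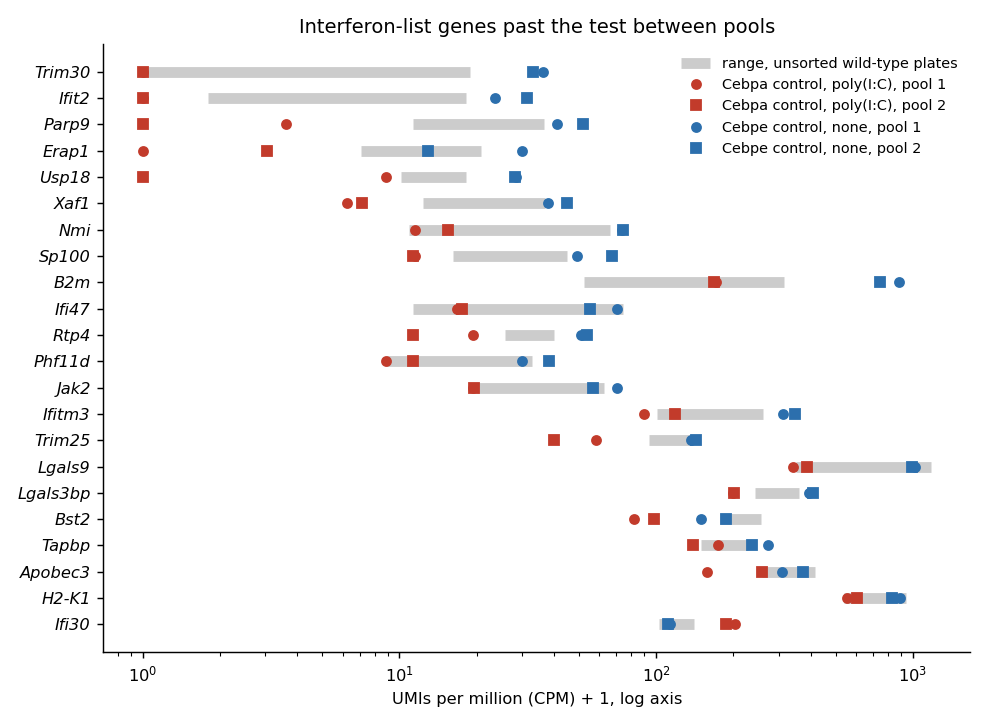
CPM + 1 (log axis) of the 22 interferon-list genes that passed the test, in each treated and untreated pool as described by the authors' table, over the range of the 8 unsorted wild-type plates in grey. The plate ranges are not scaled between libraries. In all but Ifi30 both treated pools lie left of both untreated pools; Lgals9 has 339.9 and 385 against 1016 and 992 CPM.

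The same genes were examined in erythroid-like cells alone, the class with at least 20 cells in each control pool (57 and 71 treated, 36 and 37 untreated). edgeR on 8 pools of the batch called 486 of 5480 genes, 76 higher (1.39%) and 410 lower (7.48%) in the treated pools, and 436 of them were also called over all cells, all 436 in the same direction. These cells are part of the pools above, so the overlap is no second test. Of 62 interferon-list genes tested, 16 fell and 1 rose, with a median log2 difference of -0.60 beside 0.01 for all genes. Lgals9 gave 88 and 140 UMIs in the treated and 397 and 433 UMIs in the untreated pools (log2 difference -1.69, adjusted p = 5.10e-10). Parp9 gave 0 and 0 against 14 and 19 UMIs, and the B2m row 29 and 38 against 191 and 215 (log2 difference -2.41, adjusted p = 1.95e-10). Trim25 gave 10 and 11 against 39 and 49 UMIs (log2 difference -1.87, adjusted p = 0.000354) and Nmi 3 and 2 against 24 and 28 (log2 difference -3.13, adjusted p = 0.000192). Oasl1 and Ly6e, which missed the threshold over all cells, passed here at -1.22 and -0.52 on the log2 scale, but missed the threshold under 5 and 2 of 10 alternatives (adjusted p up to 0.365 and 0.357). Of the 17 interferon-list calls in these cells, 12 were lost under at least 1 alternative and 5 under none, plates as the unit left aside. Tap2, a chain of the peptide transporter, was the 1 that rose, with 18 and 13 against 2 and 5 UMIs (log2 difference 2.33, adjusted p = 0.0127). Leaving out 1 pool at a time left between 247 and 338 genes, and with plates as the unit 0 of 7647 passed in edgeR, 1083 having an unadjusted p under 0.05.

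Summed over the effector list, the level was lower in the treated than in the untreated group in each of the 4 classes given here. It was 3761 CPM (exact Poisson 95% interval 3596 to 3932) against 6458 (6254 to 6666) in erythroid-like cells, 3739 (3341 to 4171) against 4975 (4545 to 5433) in neutrophil-like cells, 6618 (6008 to 7272) against 7611 (7148 to 8096) in monocyte-like cells and 5807 (5215 to 6449) against 8985 (8295 to 9716) in stem- or multipotent-like cells. The monocyte-like intervals overlap and those of the erythroid-like cells do not. These are sums over the cells of 1 plate each and carry no test.

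Several platelet and monocyte genes fell in the treated pools, where 8.84% of all genes tested fell and 2.3% rose. In sums over a pool, fewer cells of a type and less RNA per cell cannot be told apart. Of 14 platelet-lineage genes tested, 4 fell and none rose (median log2 difference -1.04): Pf4, a chemokine of platelet granules, had 128 and 20.6 CPM in the treated and 521 and 421 CPM in the untreated pools (log2 difference -2.75, adjusted p = 0.00276), and Cd9 and the joined row of Gp1bb were among the others that passed. Megakaryocyte-like cells were 2 and 13 on these plates. Of 11 monocyte genes 5 fell and none rose (median -1.07). F13a1, a coagulation factor of monocytes, had 10.5 and 14.4 CPM in the treated and 132 and 120.4 CPM in the untreated pools (log2 difference -3.30, adjusted p = 1.34e-06), and Emb, a membrane glycoprotein, had 81.0 and 90.6 CPM in the treated and 349 and 234 CPM in the untreated pools (log2 difference -1.76, adjusted p = 1.73e-06). Fcgr3, Ly6c2 and the joined lysozyme row were the others, while monocyte-like shares overlapped. The 8 unsorted plates held 54.5 to 119 CPM of F13a1, so the treated plate was below that range and the untreated plate slightly above it.

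Few erythroid genes passed. The counts in this paragraph stand beside 8.84% of all genes tested that fell and 2.3% that rose. Of 26 tested, 1 rose (Aqp1, a water channel) and 1 fell (the joined row of Ces2g). Both treated pools were above both untreated pools for 12 of the 26 and below for 5, beside 27.3% and 28.9% of all genes tested. Of 12 globin and heme genes 3 rose and none fell: Hbb-b1 had 112 and 233 CPM in the treated and 41.8 and 69.5 CPM in the untreated pools (log2 difference 1.65 ± 0.36 SE, adjusted p = 0.00109). Hbb-b1 is a beta globin whose reads can be split with near-identical copies, and the row named Beta-s had 68.0 and 233 CPM in the treated and 19.3 and 45.8 CPM in the untreated pools. Alad and Urod, enzymes of heme synthesis, were the other 2, at 0.67 and 0.69. Granule genes of neutrophils mostly did not pass: of 11 primary granule genes 3 fell (Nkg7, Cst7 and Igsf6), while the granule enzymes Elane, Mpo and Prtn3 had adjusted p of 0.938, 0.985 and 0.342. Among 13 neutrophil genes Hdc and Mgst1 fell. Fcnb, a ficolin of later granulocytes, rose, at 31.4 and 55.6 CPM in the treated and 16.1 and 10.2 CPM in the untreated pools (log2 difference 1.73, adjusted p = 0.00740).

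Cycling and stress genes were examined because interferon and poly(I:C) act on progenitor division. The counts below stand beside 8.84% of all genes tested that fell and 2.3% that rose. Of 25 mitosis genes 5 fell and none rose, with a median of -0.14. Mki67 had 83.7 and 82.3 CPM in the treated and 515 and 324 CPM in the untreated pools (log2 difference -2.34 ± 0.30 SE, adjusted p = 3.48e-07). Mki67 is the proliferation antigen Ki-67; the others were Ccnb1, Ccnb2, Hmmr and Nusap1. Of 23 DNA replication genes 3 fell, Cdc6 and Tipin among them, and 1 rose (Mcm3), at a median of 0.02. None of 8 immediate early genes passed, at a median of 0.00. Among 10 chaperones 4 fell (Hsp90aa1, Hsph1, Hspa5 and Hspa9); Hspa5 had 219.6 and 185 CPM in the treated and 599.8 and 556 CPM in the untreated pools (log2 difference -1.52 ± 0.20 SE, adjusted p = 3.56e-07). Hspa5 is the chaperone BiP of the endoplasmic reticulum. Among 7 metallothionein and oxidative stress genes 3 rose (Mt1, Mt2 and Gclc) and 1 fell (Nqo1). Of the inflammatory targets of NF-kB 15 of 22 were too low to test, Tnf, Il1b, Il6 and Cxcl2 being at 0, and Ccl5 alone among the 7 tested fell. Few members passed in the remaining lists. Of 10 dendritic and MHC class II genes H2-Ab1 rose and Bst2 fell, of 12 stem genes Apoe rose and Angpt1 fell, and of 8 basophil and mast cell genes Lmo4 rose and Il1rl1 and Hdc fell. Of 5 lymphoid genes Ccl5 and the row joining Rag1 with B230118H07Rik fell, of 4 genes of other marrow cells Trf fell, of 8 p53 targets Mdm2 fell, of 10 glycolysis genes Hk2 fell, and neither of 2 eosinophil genes passed. Chi3l3, 1 of 7 secondary granule genes tested, passed as higher on 86 UMIs of 1 treated pool against 1, 6 and 2 UMIs in the others, so its pools overlap.

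Large differences were also found outside the interferon lists. Among genes that reached 100 CPM in 1 group, passed the test and had no overlap of pools, the 15 that fell most held no gene of the interferon lists. Parp9 (log2 difference -5.02), Ifit2 and the Trim30 row stayed under 100 CPM and so were not ranked here. Cox7b had 7.84 and 30.9 CPM in the treated and 796 and 902 CPM in the untreated pools (log2 difference -5.35 ± 0.37 SE, adjusted p = 8.49e-14). Cox7b is a subunit of cytochrome c oxidase. Rps24 had 54.9 and 51.5 CPM in the treated and 1386 and 1535 CPM in the untreated pools (log2 difference -4.78 ± 0.35 SE, adjusted p = 5.06e-13). Tmsb4x had 41.8 and 51.5 CPM in the treated and 1423 and 1101 CPM in the untreated pools (log2 difference -4.74 ± 0.28 SE, adjusted p = 2.12e-15). Rps24 is a ribosomal protein and Tmsb4x, thymosin beta 4, binds actin. Ndufa4 had 20.9 and 14.4 CPM in the treated and 408 and 505 CPM in the untreated pools (log2 difference -4.71 ± 0.36 SE, adjusted p = 1.18e-12). Ndufa4 belongs to the respiratory chain. Cnot2 (a subunit of the deadenylase complex) fell furthest, from 53 and 72 UMIs to 0 and 1. Dbi (acyl-CoA binding), Eif3m (translation initiation), Psma2 and Psmb7 (proteasome), Rpa3 (replication protein A), Mrpl42 and Mrpl47 (mitochondrial ribosome), 2810417H13Rik, 2810026P18Rik and 1810006K21Rik complete the 15, with log2 differences from -6.21 to -4.63.

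The same genes varied between the unsorted wild-type plates. Cox7b ranged from 18.3 to 483 CPM over the 8 unsorted plates, Rps24 from 80.7 to 679.7, Tmsb4x from 25.3 to 414 and Ndufa4 from 6.17 to 133. The knockout plates of the batch held 457 to 859.9 CPM of Cox7b, nearer the untreated plate. They held 290.4 to 752 CPM of Rps24, between the 2 controls. Those that the authors' table describes as Cebpa knockout come from a group given poly(I:C). These had 859.9 and 457 CPM of Cox7b and 752 and 290.4 CPM of Rps24. The Cebpe knockout plates, given none, had 817 and 659 CPM of Cox7b and 589 and 569 CPM of Rps24. The 2 later plates of mouse identifier 6 held 32.4 and 11.7 CPM of Cox7b and 44.4 and 66.8 CPM of Rps24, close to the treated plate. Of the 651 genes that fell, 34.4% varied at least 4-fold over the unsorted plates, against 6.27% of all genes tested and 4.73% of the 169 that rose. The ratio between the controls exceeded the unsorted range for 67.4% of those that fell, 69.2% of those that rose and 20.3% of all. Across genes, which are not independent replicates, the control difference had a Pearson correlation of 0.36 over all tested genes, 0.55 over those that fell and -0.34 over those that rose with the log2 ratio of 2 unsorted plates (plates 2 and 3 of the authors' table), which share 1 mouse identifier and batch and hold no control cells. The part of such plate differences in the results above was not tested.

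**Figure D4:**
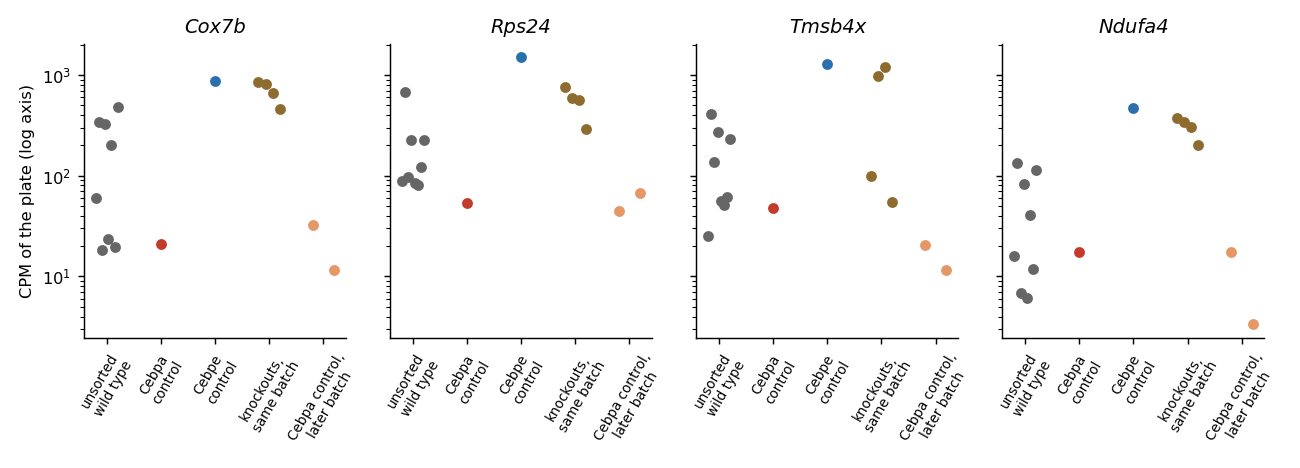
CPM per plate (log axis) of Cox7b, Rps24, Tmsb4x and Ndufa4: 8 unsorted wild-type plates, the Cebpa control plate (poly(I:C)), the Cebpe control plate (none), 4 knockout plates of the same batch and 2 later Cebpa control plates, each point 1 plate named by the authors' table. Plate values are not scaled between libraries. Cox7b spans 18.3 to 483 CPM over the unsorted plates, and has 7.84 and 30.9 against 796 and 902 CPM (scaled) in the control pools.

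Genes that rose were fewer and changed less. Atpase6 had 1116 and 772 CPM in the treated and 125 and 209 CPM in the untreated pools (log2 difference 2.49 ± 0.39 SE, adjusted p = 1.13e-05). Atpase6 is the name of a subunit of the mitochondrial ATP synthase. Rpsa had 494 and 603 CPM in the treated and 182 and 276 CPM in the untreated pools (log2 difference 1.26 ± 0.24 SE, adjusted p = 0.000255). Rpsa is a ribosomal protein and laminin receptor. Zbtb7a had 230.1 and 255 CPM in the treated and 99.7 and 120.4 CPM in the untreated pools (log2 difference 1.14 ± 0.23 SE, adjusted p = 0.000460). Zbtb7a is a repressor of fetal globin. Beside the beta globin rows and Cebpa, the 15 with the largest rise held Bcap29, Tubb2a, Abhd16a, Slc38a10, Ints5, Snrpc, Selenbp1, AK210533 and Hpn, with log2 differences from 0.99 to 2.49. By size alone, without a test, 239 of 2530 genes with at least 100 CPM in 1 group (9.45%) differed at least 2-fold without overlap of pools, 16 higher and 223 lower; with equal class shares 201 of the 239 remained.

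The share of genes that fell or rose changed with base composition. Transcripts of genes that fell had a median GC content of 45.9% and those that rose 55.4%, beside 50.4% for all tested and 51.2% for the interferon lists. With genes split into 10 bins of equal size by GC content, 18.2% fell and 1.10% rose in the lowest bin, and 0.413% fell and 5.78% rose in the highest bin, the median log2 difference moving from -0.25 to 0.34. The same bins of the unsorted plate pair moved from -0.04 to 0.12. With offsets for GC content in the fit, chosen after seeing the data, 649 genes passed, 155 higher and 494 lower, and 21 interferon-list genes fell with none higher, 18 of them among the 22 above.

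**Figure D5:**
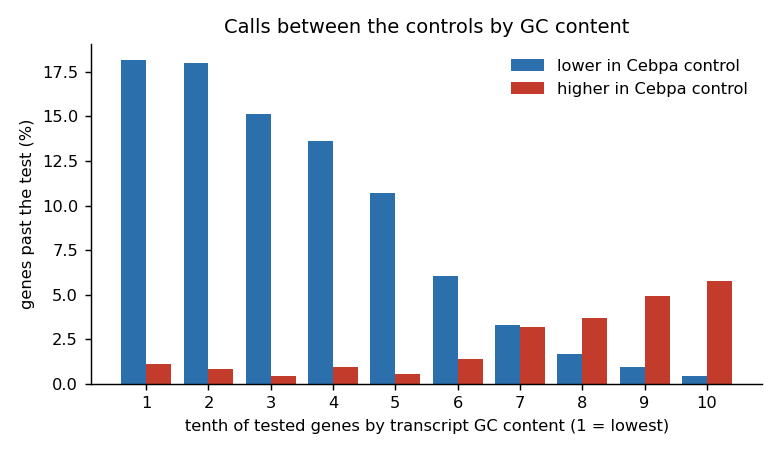
Percent of tested genes that passed the test lower (blue) or higher (red) in the Cebpa control, in 10 bins of transcript GC content from lowest to highest. The lower share drops from 18.2% to 0.413% and the higher share climbs from 1.10% to 5.78%.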

How the data were processed

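MARS-seq UMI counts and index-sort values of 4 amplification pools were analysed, with the other pools of the batch, unsorted wild-type pools and 4 later control pools for reference. The authors deposited UMI counts per gene row and well, used as raw counts; 2109 of 27297 rows join several symbols, and such rows, like genes with near-identical copies (globins, Ly6c2, lysozymes), are uncertain. Surface CD34 and FcgR are fluorescence intensity values deposited by the authors in the well table, some below 0, with no stated compensation. The submitters' processing notes name bcl2fastq 2.15.0.4 and mm9 as the genome build. Aligner, annotation, UMI filters and strand use: not given in the sources used here.

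Groups follow the well table, since all 12 pools of the batch disagree with their sample labels; replicate numbers follow accession order. Wells with 1 cell and at least 500 UMIs were summed per pool. Doublets were not called, each well having been sorted to hold 1 cell, and pools share no well. All 12 pools of the batch entered edgeR 4.0.16 in R 4.3.3 (quasi-likelihood test, TMM scaling, filterByExpr, Benjamini-Hochberg adjusted p under 0.05); SE are of the log2 difference, treated minus untreated. CPM of pools are TMM-scaled, except in erythroid-like cells and list sums by class. CPM of plates (unsorted, knockout and later plates, and list sums on them) are not scaled between libraries, so small differences between pool and plate values are uncertain. Classes are 12 k-means clusters of unsorted cells (1200 variable genes, 20 principal components); 90.4% of those cells were assigned back to their own cluster. Genes are named if they are targeted or sex-linked, pass as members of a list or, for interferon lists, are among its 5 most abundant, or are among the 15 largest differences per direction at 100 CPM or more without overlap, joined rows left out (5 per direction within a class); a few others were added for context. Members and lists were chosen with earlier results of these data known. Transcript GC content is that of the longest GENCODE transcript of a gene, protein-coding where there was one, matched by symbol (98.7% of tested genes matched). Promoters are from RefSeq by symbol. Alternatives were only the 4 pools in the fit, DESeq2 1.42.0, other scalings, no filter, other UMI minimums, left-out pools, the sample-label grouping, and, chosen after seeing the data, plates as the unit and GC offsets. The test was checked on simulated counts that held no effect of plate, so the check does not bear on differences between plates. The values of a few list members are not reported here, though the list counts include them.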

Additional observations from a re-analysis of the deposited data

How the results depend on the processing

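By the sample labels poly(I:C) sits on the other side of this comparison. With the names of the 2 control groups exchanged, the same fit gives 651 genes higher and 169 lower on that side. The 22 interferon-list genes become 21 higher and 1 lower. This turn is fixed by the exchange and tests nothing. The other pools of the batch kept the grouping of the authors' table, and a fit grouped by the sample labels throughout was not run. With plates as the unit 0 genes passed in edgeR over all cells, in erythroid-like cells and in the interferon lists. Leaving out 1 pool gave 396 to 562 genes (main count 820), 12 to 15 interferon-list genes (22), 247 to 338 genes in erythroid-like cells (486) and 262 to 278 genes by size alone (239); fewer pools enter these fits. DESeq2 called 588 genes, 16 of the interferon lists, and 299 in erythroid-like cells. The 4 control pools alone gave 1098 and 30. By size alone, 582 genes differed at least 1.5-fold (226 higher, 356 lower) and 138 at least 3-fold (3 and 135), so the share of higher calls depends on the fold chosen. Of the 22 interferon-list genes, 11 passed under every alternative but plates as the unit (Ifit2, Xaf1, Trim25, Parp9, Sp100, Lgals3bp, Ifitm3, Nmi, Lgals9 and the Trim30 and B2m rows), and 11 were lost at least once; of 100 named genes that passed, 47 were never lost. Chi3l3, a secondary granule gene, reversed to -1.27 on the log2 scale without the second treated pool, which held 86 of its UMIs, and ranged up to 4.71 over left-out pools. The difference in dendritic-like shares (treated minus untreated, in percentage points) reversed to 0.0182 and 0.0925 without the second treated and the first untreated pool, ranging from -0.669 to 0.0925 over left-out pools, and that of stem- or multipotent-like shares reversed to -1.44 when cells were assigned without markers and to -0.142 at 1000 UMIs; the cause was not tested. Left-out pools moved the difference from 5.33 to 13.3 points for erythroid-, -5.69 to -3.46 for megakaryocyte-, -6.61 to -1.45 for monocyte-, 0.385 to 4.14 for neutrophil-, 0.975 to 1.72 for stem- or multipotent-, 0.590 to 3.04 for basophil- or mast-, and -0.813 to 0 for lymphoid-like cells, and -7.90 to -2.97 for unnamed cells. No paired analysis was possible because replicate numbers come from accession order alone and pair no pools. Depth limits genes under a few CPM: 3 counts over a group are 3.45 CPM in the treated and 2.48 CPM in the untreated pools.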

Other observations

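Beside the genes described above, a few were higher on each of the 3 plates that carry mouse identifier 6 than on the untreated plate. Among genes of at least 100 CPM in the higher group that passed edgeR's test on pools, the ratio between the controls exceeded the unsorted range for 80 genes higher and 177 genes lower in the treated pools. Rpsa, a ribosomal protein, had 494 and 603 CPM in the treated and 182 and 276 CPM in the untreated pools, 153 to 280.1 CPM on the unsorted plates, 252 to 488 CPM on the knockout plates of the batch and 749 and 1502 CPM on the 2 later plates. Hagh, a glutathione hydrolase that clears methylglyoxal, had 136 and 171 CPM in the treated and 86.8 and 69.5 CPM in the untreated pools, 76.1 to 108 CPM on the unsorted plates, 69.9 to 128 CPM on the knockout plates and 145 and 200.3 CPM on the later plates. The knockout plates, from groups with and without poly(I:C) by the authors' table, thus reached nearly to the treated pools in both genes. Nhp2, a core protein of box H/ACA small nucleolar particles, had 191 and 181 CPM in the treated and 90.1 and 102 CPM in the untreated pools and 266 and 417 CPM on the later plates, but its treated values lay inside the ranges of the unsorted plates, 148 to 281 CPM, and of the knockout plates, 88.7 to 214 CPM. These genes were picked out after their values were seen. The 3 plates share an identifier and, in the authors' table, a description as Cebpa control, which cannot be told apart in them. Only the 2 later plates also have sample labels that give poly(I:C). The sample labels call the treated plate a Cebpe knockout without injection.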
